A study of Bos taurus with 60 samples.

Results

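Mammary tissue late in the dry period was compared with tissue at the end of the first week after dry-off, as D25 vs. D7, in biopsies of 12 multiparous Holstein cows. All samples labelled Day 25 (n = 12) and Day 7 (n = 12) were taken, which are 24 of the 60 samples of the series, and they were compared unpaired with both treatments together. From dry-off on, the 6 cooled (CL) cows had shade, fans and soakers and the 6 heat-stressed (HT) cows had shade alone, so every D7 and D25 sample came from a pregnant, non-lactating and treated cow. The same cows were also sampled at D-3, before treatment began, and at D3 and D14. Biopsies were taken from alternating glands of the udder, trimmed of visible fat and not sorted. In such bulk tissue, fewer cells of a type and less RNA per cell cannot be told apart.

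When milk removal stops, the secretory epithelium of the udder involutes, cells die and are cleared, and the extracellular matrix is remodelled. Because the dairy cow is usually pregnant at dry-off, involution overlaps with renewal of the epithelium, and the gland later redevelops towards colostrum formation and the next lactation. Dividing cells are recognised by mitotic kinases, kinesins and spindle proteins, resident and recruited macrophages by phagocyte receptors and oxidase subunits, and secretory cells by caseins and alpha-lactalbumin. The comparison of D25 with D7 leaves out the abrupt days around dry-off and spans the later part of this course.

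Single-ended RNA-Seq reads had been counted on 25223 loci. Total counts were 21369890 to 26183990 per D7 sample and 20525083 to 23530384 per D25 sample, and a count of 0 in 1 of these libraries allows a level of up to 0.0983 to 0.15 CPM (counts scaled to a library of 1000000), for counting error only. After a filter on low counts 14714 loci were tested. CSN2 and CSN1S1 (caseins), KRT19 (a luminal keratin) and ACTA2 (smooth muscle actin) were detected in all D7 and D25 samples. A symbol could be paired with 3007 of the tested loci, so the other loci were counted but not described. The symbols came from shortened supplementary tables of loci ranked by other contrasts of these same cows (D3 vs. D-3, D7 vs. D3 and D14 vs. D7), and the last 2 of these contrasts use the D7 samples analysed here. Libraries labelled as the same cow correlated in their deviations from the group means (r over 0.1) in 10 of 12 cows. The mean r over all 12 cows was 0.491. The exceptions were HT cows 8513 (r = -0.0562) and 8660 (r = -0.0613), and the D7 library labelled 8660 was most similar to the D25 library labelled 8513 (r = 0.496). For CL cow 8647 the own-cow r was 0.226, and its D7 library was more similar to the D25 library labelled 8660 (r = 0.42). The D7 library labelled 8513 also had the highest milk protein, milk fat, sterol and myoepithelial levels and the lowest mitotic and macrophage levels of the 12 D7 samples. Counts of cows below follow the labels.

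No locus passed the FDR between D25 and D7 in the unpaired comparison. The quasi-likelihood F-test of edgeR gave 0 DEGs (differentially expressed genes) at an FDR of at most 0.05 among 14714 loci (0%), and the lowest unadjusted p was 0.000313, which left every FDR at 1. An unadjusted p under 0.05 was reached by 298 loci (2.03%), where an even spread of p-values would give 5%. Of these, 162 (1.1%) were higher and 136 (0.924%) lower at D25. In an unblocked fit of the 24 samples of D7 and D25 alone, 704 loci (4.78%) had an unadjusted p under 0.05. The same cows were sampled on both days, which the unpaired fit does not use. With the cow as replicate block the share of loci under 0.05 was 4.23% with 0 DEGs, and with the block in the 24 samples alone it was 11% with 1 DEG, or 13.4% with 5 DEGs when the labels of cows 8513 and 8660 were also exchanged. DESeq2 gave 0 DEGs as well, with 356 loci at an unadjusted p under 0.05. The estimates were spread evenly about 0, with 52.8% of loci above and 47.2% below and a median log2 fold change of 0.008. In 0 loci did the D7 and D25 samples separate without overlap (0%). The 95% intervals give the range of differences compatible with the data for single loci. They are not adjusted for the number of loci tested, so they do not give the difference needed to pass the FDR. The median standard error was 0.166 on the log2 scale, and the 95% interval lay within -1 and 1 for 87.6% of loci and within -0.5 and 0.5 for 58.7%. For 1821 loci the interval reached a log2 difference of 1 or more in size. In the same fit the step from D7 to D14 gave 0 DEGs with 257 loci at an unadjusted p under 0.05, and the step from D14 to D25 gave 9 DEGs with 534. For both steps the paper reports no DEGs at this FDR, and the reason for the difference was not tested. Some D14 biopsies were unusual, as the mean log2 CPM of a luminal epithelial gene list ranged from 1.92 to 6.74 at D14. At D25 it ranged from 5.53 to 6.16. Cows differed from each other less at D7 and D25 than before dry-off. The median SD of log2 CPM over cows was 0.325 at D7 and 0.319 at D25, against 0.466 at D-3.

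**Figure D1:**
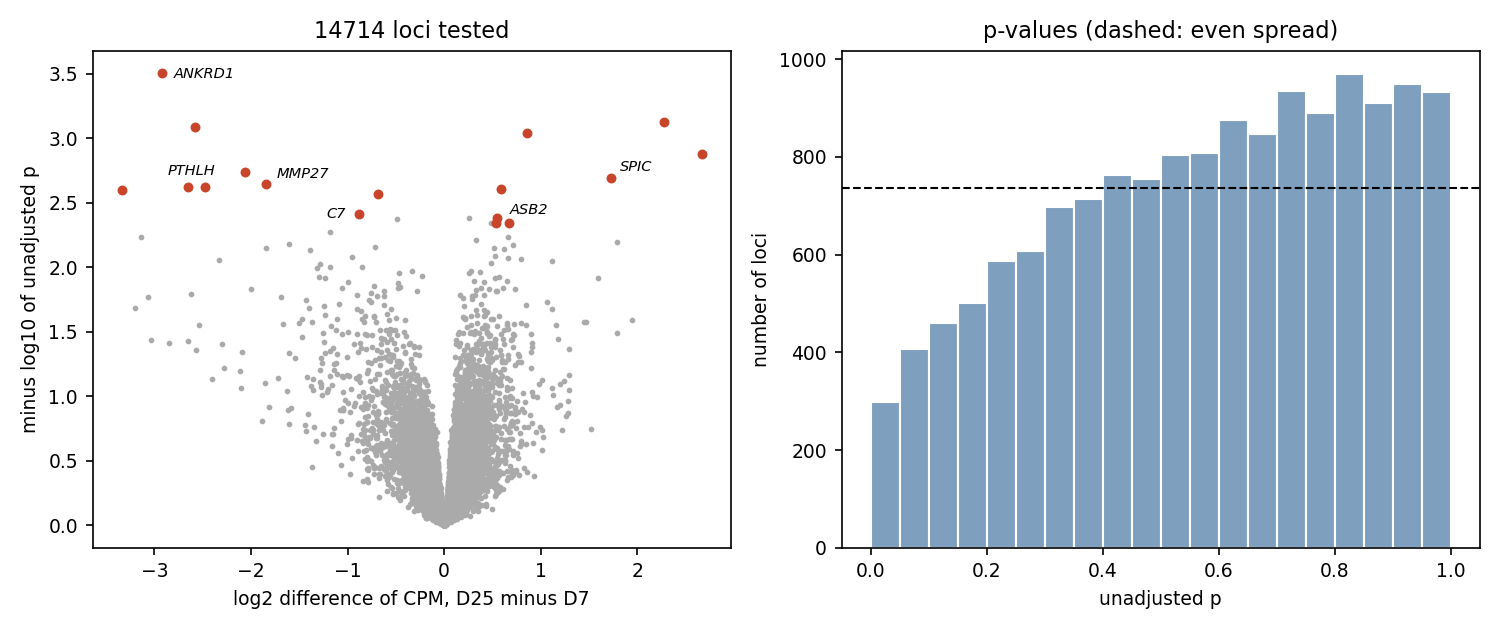
The left panel plots each of the 14714 tested loci by its log2 difference of CPM (D25 minus D7) and minus log10 of its unadjusted p, with the 17 loci past the less stringent threshold in red and the 6 of these with a symbol named. The right panel counts the loci in bins of unadjusted p 0.05 wide, and the lowest bin holds 298 loci, fewer than the dashed line of an even spread.

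A less stringent threshold (unadjusted p ≤ 0.005 and log2 fold change ≥ 0.5 or ≤ -0.5) was passed by 17 loci (0.116%), of which 8 were higher (0.0544%) and 9 lower (0.0612%) at D25. Only 6 of them had a symbol, SPIC and ASB2 on the higher side and ANKRD1, MMP27, PTHLH and C7 on the lower side. None of these is a DEG. ANKRD1, MMP27, C7 and ASB2 were paired through the D7 vs. D3 table, SPIC through the D14 vs. D7 table and PTHLH through the D3 vs. D-3 table. The D7 vs. D3 and D14 vs. D7 tables use the same D7 samples. For the genes paired through them, the direction is therefore not independent of how they were found.

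ANKRD1, a stress-inducible ankyrin repeat protein of muscle and matrix-attached cells, had the smallest p. Its level ranged from 0 to 6.42 CPM at D7 with a median of 0.391 and from 0 to 0.374 CPM at D25 with a median of 0.16. The high values were confined to some of the D7 cows, while low values occurred at both time points. The log2 fold change was -2.92 ± 0.76 (SE; p = 0.000313, FDR = 1), and 8 of 12 cows were lower at D25. MMP27, a matrix metalloproteinase, ranged from 0 to 1.97 CPM (median 0.899) at D7 and from 0 to 0.773 CPM (median 0.138) at D25. It was lower at D25 in 10 of 12 cows, with a log2 fold change of -1.84 ± 0.58 (p = 0.00227, FDR = 1). Both genes lie near the detection limit of these libraries.

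C7, a terminal complement component made by stromal cells, was abundant. It ranged from 60.6 to 355 CPM with a median of 244 at D7 and from 52.8 to 171 CPM with a median of 123 at D25. The ranges overlapped, and none of the D25 samples reached the D7 median. The log2 fold change was -0.88 ± 0.29 (95% interval -1.46 to -0.29; p = 0.00388, FDR = 1), and 10 of 12 cows were lower. At D-3 the median was 100 CPM and at D3 112 CPM, so the D25 median was close to those before D7 and the D7 median was the highest of the 5 time points. C7 got its symbol through the D7 vs. D3 table, so its high D7 level is not independent of how it was found.

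PTHLH encodes parathyroid hormone-related protein, which the lactating epithelium secretes. It ranged from 0.559 to 69.3 CPM (median 1.95) at D7 and from 0.393 to 3.47 CPM (median 0.991) at D25. The highest D7 value belonged to cow 8513, and the next reached 8.86 CPM. The log2 fold change of -2.65 ± 0.83 (p = 0.00238, FDR = 1) was -1.06 (p = 0.165, FDR = 1) without that library.

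SPIC, a transcription factor of iron-recycling macrophages, ranged from 0.233 to 3.08 CPM (median 0.628) at D7 and from 0.278 to 11.6 CPM (median 1.79) at D25. The groups overlapped at their low ends, and 8 of 12 cows were higher at D25 (log2 fold change 1.73 ± 0.54, p = 0.00202, FDR = 1). ASB2, a substrate adaptor of a ubiquitin ligase, ranged from 3.01 to 6.96 CPM (median 4.36) at D7 and from 3.61 to 11.2 CPM (median 5.62) at D25. The shift was small but shared by 11 of 12 cows (log2 fold change 0.55 ± 0.18, p = 0.00412, FDR = 1). Among loci with no symbol, XLOC_001357 (2.28 ± 0.64) and XLOC_004509 (0.86 ± 0.25) had the smallest p on the higher side. On the lower side these were XLOC_020159 (-2.58 ± 0.73) and XLOC_021850 (-2.07 ± 0.63). The highest D7 value of XLOC_020159 was again in cow 8513, without whose D7 library its log2 fold change was -1.42.

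Genes of cell division address whether proliferation differed between involution and the start of redevelopment. All 57 tested loci of a mitosis list were counted, and 0 were DEGs. The estimate was below 0 in 56 of the 57 (47.2% of all loci), 0 reached an unadjusted p under 0.05, and the median log2 fold change was -0.35 (0.008 over all loci). Without the D7 library of cow 8513 the median was -0.45, with 56 of 57 below 0. With single cows left out it lay between -0.56 (without 8513) and -0.21 (without 8060). Of these loci 54 got their symbol only through the D7 vs. D3 table, for which the same D7 samples were used, so the direction is not independent of how the members were found. The 3 mitotic loci paired through the D3 vs. D-3 table, which uses neither day, had 1 estimate above and 2 below 0, with a median of -0.19. The locus above 0, ITPRIPL1/NCAPH (0.11), joins 2 genes whose reads cannot be divided. Over all tested loci paired through the D7 vs. D3 table and not the D3 vs. D-3 table, 58.3% were below 0 with a median of -0.02. Mitotic genes are also expressed in the same cells, so the 57 loci do not count as separate observations of a change.

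MKI67, the Ki-67 proliferation antigen, ranged from 22.3 to 157 CPM (median 87.1) at D7 and from 46.8 to 136 CPM (median 73.4) at D25. The D25 range lay inside the D7 range. The log2 fold change was -0.24 ± 0.33 (95% interval -0.89 to 0.42; p = 0.47, FDR = 1), although 10 of 12 cows were lower at D25. TOP2A, a topoisomerase of dividing cells, had medians of 86.7 and 69.9 CPM and a log2 fold change of -0.31 (interval -1 to 0.37).

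CEP55, which acts in the final separation of daughter cells, had one of the lower p-values of the list. It ranged from 1.9 to 17.3 CPM (median 9.61) at D7 and from 4.02 to 12.3 CPM (median 6.4) at D25. The lowest D7 and the highest D25 value both came from cow 8513, and 10 of 12 cows were lower (log2 fold change -0.56 ± 0.34, p = 0.103, FDR = 1). IQGAP3, a scaffold of the cytokinetic machinery whose locus also joins a further ENSEMBL gene, had medians of 14.4 and 8.6 CPM (log2 fold change -0.64 ± 0.36, p = 0.0826, FDR = 1). KIF20A, a mitotic kinesin, had medians of 23 and 15.3 CPM and was lower at D25 in 9 of 12 cows (-0.52 ± 0.37). The spindle checkpoint kinase BUB1B (-0.35 ± 0.28), the centrosomal kinase NEK2 (-0.37 ± 0.4) and the cyclin-dependent kinase subunit CKS2 (-0.3 ± 0.31) had intervals that included 0.

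The mean log2 CPM of the mitosis list gave 1 score per sample. It was 2.22 to 4.77 (median 3.95) at D7 and 2.79 to 4.61 (median 3.5) at D25, with medians of 2.56 at D-3, 2.99 at D3 and 3.88 at D14. The D25 median therefore lay between those of D3 and D7. The D25 range lay inside the D7 range only through the D7 library of cow 8513 (2.22). The next lowest D7 score was 3.43 (cow 8668), and D25 scores went down to 2.79 (cow 8564). The score was lower at D25 in 10 of 12 cows, in 6 of 6 CL cows and 4 of 6 HT cows, and in 9 of 10 cows without 8513 and 8660. The D25 minus D7 difference of mean scores was -0.74 in CL cows and 0.16 in HT cows, and -0.13 in HT cows without the D7 library of cow 8513. Fits of 1 treatment alone gave a list median of -0.82 with 56 of 57 loci below 0 in CL cows and of 0.06 with 17 of 57 in HT cows. The difference between treatments was tested per locus, and the interaction of treatment and time gave 0 DEGs in edgeR, with 23 of 14714 loci (0.156%) and 0 of the 57 mitotic loci at an unadjusted p under 0.05. An even spread of p-values would give 5%. With so few loci under 0.05, the test cannot decide whether the mitotic change differed between treatments.

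DNA replication genes had smaller estimates. Of 22 loci, 20 were below 0 and 2 above, 0 had an unadjusted p under 0.05, and the median was -0.16. In CL cows alone 22 of 22 were below 0 with a median of -0.51, and in HT cows alone 2 of 22 with a median of 0.06. The median was -0.23 without the D7 library of cow 8513, and -0.36 without cow 8513 and -0.1 without cow 7965. Of these loci 20 were paired through the D7 vs. D3 table alone. FEN1, the flap endonuclease of Okazaki fragments, had medians of 16.5 and 13.6 CPM (log2 fold change -0.22 ± 0.19), CLSPN, a checkpoint adaptor, -0.29 ± 0.26, and MCM10, a replication initiation factor, -0.27 ± 0.25. Regulators of the G1 phase did not share a direction, with 3 of 5 loci above and 2 below 0. CDKN2C, an inhibitor of cyclin D kinases, ranged from 9.8 to 26.7 CPM (median 18.5) at D7 and from 8.08 to 19.2 CPM (median 12.8) at D25, and 10 of 12 cows were lower (log2 fold change -0.46 ± 0.18, p = 0.0141, FDR = 1). CDKN2C got its symbol only through the D7 vs. D3 table, so its direction is not independent of how it was found. CCND1, cyclin D1, had medians of 57.2 and 56.7 CPM with an interval of -0.3 to 0.87.

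**Figure D2:**
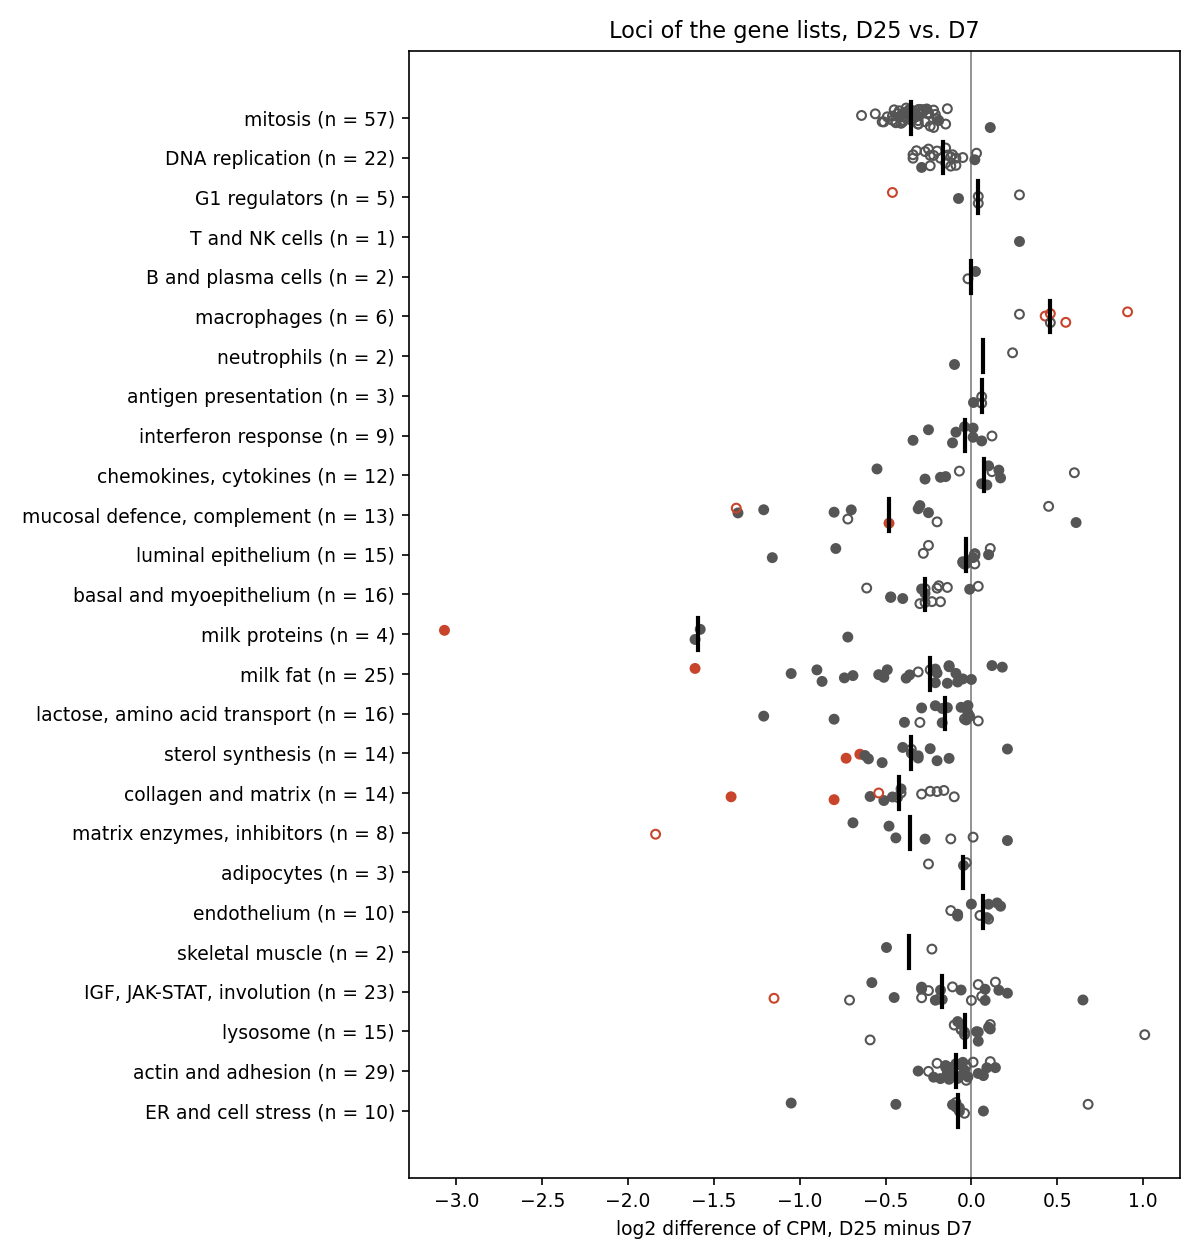
Each point is a tested locus of 1 gene list, placed by its log2 difference of CPM (D25 minus D7), with the number of loci beside the name of the list and a black bar at the median. Filled points got their symbol through the D3 vs. D-3 table and open points only through tables that use D7 samples, red points had an unadjusted p under 0.05, and the mitosis points gather about -0.35 while the macrophage points all lie above 0.

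Macrophage genes had the highest median of the lists. All 6 tested loci were above 0 (52.8% of all loci), 4 of the 6 had an unadjusted p under 0.05 and a positive estimate (1.1% of all loci), 0 were DEGs, and the median log2 fold change was 0.46. All 6 were paired with a symbol through the table of D14 vs. D7, in which loci are ranked by a contrast with the same D7 samples. Of the 53 tested loci paired through that table alone, 46 (86.8%) were above 0 with a median of 0.36 and 15 had an unadjusted p under 0.05, so a positive estimate was usual among loci found that way and is not independent support. Most of the 40 symbols of the list, CD14, CD68, CD163 and CSF1R among them, could not be paired and were not analysed here.

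CYBB, the catalytic subunit of the phagocyte oxidase, ranged from 85 to 220 CPM (median 138) at D7 and from 108 to 291 CPM (median 168) at D25. The ranges overlapped, but 11 of 12 cows were higher at D25 (log2 fold change 0.46 ± 0.18, 95% interval 0.09 to 0.83; p = 0.0148, FDR = 1). C3AR1, the receptor for the complement fragment C3a, ranged from 17.6 to 40.5 CPM (median 25) at D7 and from 19.9 to 54.3 CPM (median 40.4) at D25. The D25 median was at the upper end of the D7 range, and 10 of 12 cows were higher (0.55 ± 0.22, p = 0.0154, FDR = 1). AIF1, a calcium-binding protein of macrophages, had medians of 21.8 and 31.5 CPM and was higher in 10 of 12 cows (0.43 ± 0.19, p = 0.0296, FDR = 1).

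The scavenger receptor MSR1 had medians of 50.9 and 59.5 CPM (log2 fold change 0.28, interval -0.16 to 0.72). The fourth gene with an unadjusted p under 0.05 was the lectin receptor CLEC4E, named after its value was seen. Outside this list, GPNMB and HMOX1 are also known from macrophages. Neither was paired through the D3 vs. D-3 table, so both got their symbol through a table that uses these D7 samples. Their direction is not independent of how they were found. GPNMB, the highest estimate of a lysosome list whose median was -0.04 with 8 of 15 loci below 0, encodes a glycoprotein of lipid-laden and lysosome-rich macrophages, and had medians of 22.6 and 29.9 CPM and a highest D25 value of 242 CPM (1.01, interval -0.1 to 2.12). HMOX1, the haem-degrading enzyme, is the highest estimate of a cell stress list whose median was -0.08 with 8 of 10 loci below 0. It had medians of 42.2 and 87 CPM and was higher in 9 of 12 cows (0.68, interval -0.13 to 1.5). The macrophage list median was 0.46 in CL cows, 0.48 in HT cows and 0.39 without the D7 library of cow 8513. In that last fit CYBB and C3AR1 (2 of 6) kept an unadjusted p under 0.05 (1.35% of all loci, in either direction). The D14 median of the score was 4.1, against 3.78 at D7 and 4.26 at D25.

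Other immune lists held few loci and small estimates. The T and NK cell list had 1 tested locus, ZAP70, a T-cell receptor kinase, with medians of 66.4 and 80.1 CPM (log2 fold change 0.28, interval -0.15 to 0.72), and 10 of 12 cows were higher. Of 2 loci each of the B and plasma cell and the neutrophil list, 1 was above and 1 below 0. Mast cell genes could not be paired. Antigen presentation had 3 of 3 loci above 0 with a median of 0.06 and the interferon response 4 of 9 with a median of -0.04. Chemokines and cytokines had 7 of 12 loci above 0 with a median of 0.07. CXCL12, a stromal chemokine, had medians of 435 and 426 CPM with an interval of -0.47 to 0.17. CCL3, a macrophage chemokine, had medians of 2.38 and 3.55 CPM and was higher in 10 of 12 cows (0.6, interval -0.05 to 1.26). It was also paired only through a table that uses the D7 samples.

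Mucosal defence and complement genes had the reverse sign from macrophage genes. Of 13 loci, 11 were below 0 and 2 above, 2 had an unadjusted p under 0.05 (0.924% of all loci), 0 were DEGs and the median was -0.48. The 9 members paired through the D3 vs. D-3 table had 8 estimates below 0 and the same median of -0.48. The D25 minus D7 difference of mean list scores was -0.05 in CL cows and -0.53 in HT cows. In fits of 1 treatment alone the list median was -0.31 with 9 of 13 loci below 0 in CL cows. In HT cows it was -0.48 with 11 of 13. C1R, a protease that starts the classical complement cascade, ranged from 118 to 351 CPM (median 208) at D7 and from 105 to 225 CPM (median 146) at D25. The upper values were lost at D25 while the lower ends were alike, and 9 of 12 cows were lower (log2 fold change -0.48 ± 0.19, p = 0.0132, FDR = 1). Its partner protease C1S had medians of 420 and 340 CPM (-0.3, interval -0.62 to 0.03).

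C3, the central complement component, varied widely between cows. It ranged from 320 to 7790 CPM (median 1020) at D7 and from 333 to 2550 CPM (median 556) at D25, with 8 of 12 cows lower (log2 fold change -1.37 ± 0.6, p = 0.0265, FDR = 1). The log2 fold change of C3 was -0.37 in CL cows alone and -1.92 in HT cows alone. C3 got its symbol only through the D7 vs. D3 table, which uses these D7 samples. Its direction is therefore not independent of how it was found. LBP, the lipopolysaccharide-binding protein, had medians of 153 and 97.5 CPM and was lower in 10 of 12 cows, but its interval of -1.7 to 0.29 included 0. GP2, an apical glycoprotein that binds bacteria, had a log2 fold change of -1.36 (interval -2.86 to 0.14), and of -0.62 without the D7 library of cow 8513.

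The matrix of the stroma was described by collagen and matrix genes. All 14 tested loci were below 0 (47.2% of all loci), 3 of them had an unadjusted p under 0.05 (0.924% of all loci, lower at D25), 0 were DEGs, and the median log2 fold change was -0.42. The 6 members paired through the D3 vs. D-3 table were all below 0 as well, with a median of -0.55. THBS1, the matricellular protein thrombospondin 1, ranged from 163 to 671 CPM (median 335) at D7 and from 129 to 270 CPM (median 196) at D25. No D25 sample reached the D7 median, and 11 of 12 cows were lower (-0.8 ± 0.37, 95% interval -1.53 to -0.07; p = 0.0333, FDR = 1). COL14A1, a collagen of fibril surfaces, had medians of 112 and 88.1 CPM (-0.54 ± 0.24, p = 0.0305, FDR = 1), with 10 of 12 cows lower. Its symbol came only through the D7 vs. D3 table, so its direction is not independent of how it was found.

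COMP, a pentameric matrix protein, was low, with medians of 2.03 and 0.844 CPM (log2 fold change -1.4 ± 0.59, p = 0.0208, FDR = 1). DCN, the proteoglycan decorin, ranged from 633 to 1630 CPM (median 1030) at D7 and from 643 to 1040 CPM (median 752) at D25. The low ends of DCN were alike and the high D7 values had no counterpart at D25 (-0.43, interval -0.91 to 0.05). Fibronectin, FN1, had medians of 1030 and 700 CPM (-0.51, interval -1.17 to 0.14) and the matrix-remodelling protein MXRA5 340 and 234 CPM (-0.59, interval -1.33 to 0.15). The list median was -0.54 in CL cows and -0.33 in HT cows, and -0.39 without the D7 library of cow 8513. The score was lower at D25 in 8 of 12 cows, and its SD over cows was 0.43 at D7 and 0.29 at D25.

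Matrix enzymes and their inhibitors had 6 of 8 loci below 0 (47.2% of all loci) and a median of -0.36. MMP27 was the 1 member with an unadjusted p under 0.05 (0.924% of all loci, lower at D25). TIMP1, a metalloproteinase inhibitor, had medians of 35.4 and 22.3 CPM (interval -1.13 to 0.17), and LOXL1, an elastin cross-linking oxidase, 58 and 44.4 CPM (interval -0.97 to 0.08). The score was lower in 10 of 12 cows. The 3 adipocyte loci had a median of -0.05, and ADIPOQ, the adipocyte hormone adiponectin, had medians of 18.8 and 18.5 CPM (log2 fold change -0.25, and -0.11 without the D7 library of cow 8513).

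Sterol synthesis genes shared a direction across cows. Of 14 loci, 13 were below 0 (47.2% of all loci) and 1 above, 2 had an unadjusted p under 0.05 (0.924% of all loci, lower at D25), 0 were DEGs and the median was -0.35. All but 1 of the 14 were paired through the D3 vs. D-3 table, and those 13 gave the same median with 12 estimates below 0. The score ranged from 5.19 to 5.98 (median 5.61) at D7 and from 4.99 to 5.61 (median 5.21) at D25. The D25 median lay at the lowest D7 values, and 11 of 12 cows were lower. The list median was -0.36 in CL cows, -0.34 in HT cows and -0.31 without the D7 library of cow 8513, and the D14 score median of 5.22 was already at the D25 level.

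MSMO1, a sterol oxidase, ranged from 43.1 to 118 CPM (median 66.6) at D7 and from 31.3 to 58.5 CPM (median 43.1) at D25. No D25 sample reached the D7 median, and 10 of 12 cows were lower (log2 fold change -0.65 ± 0.31, 95% interval -1.27 to -0.03; p = 0.0392, FDR = 1). Without the D7 library of cow 8513 its log2 fold change was -0.61 with p = 0.0604 (FDR = 1). FDFT1, squalene synthase, had medians of 43.4 and 36 CPM and was lower in 11 of 12 cows (-0.35, interval -0.69 to 0). SQLE, squalene epoxidase, had medians of 88.2 and 62.8 CPM (interval -0.86 to 0.25).

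**Figure D3:**
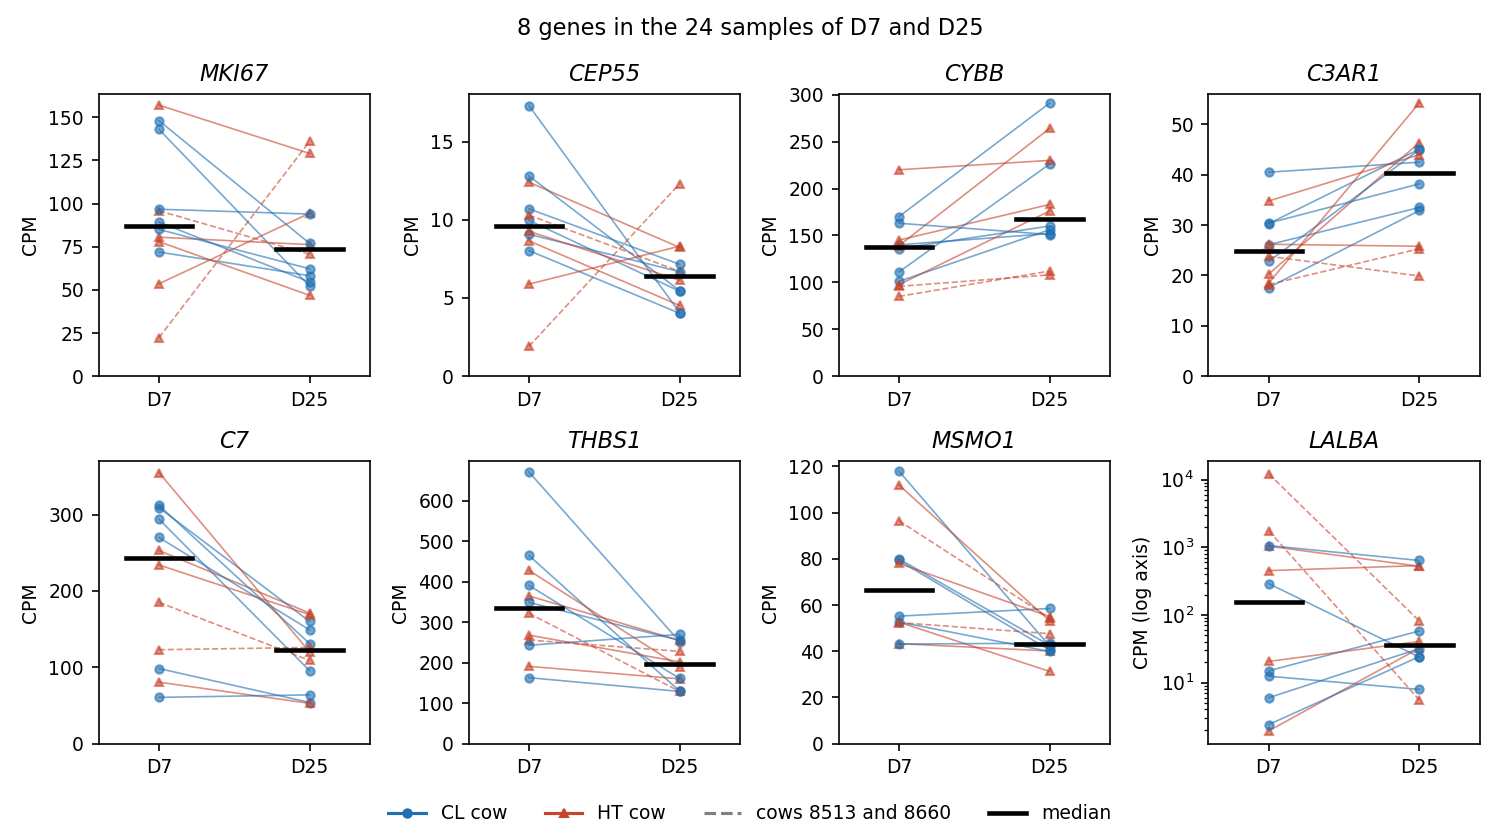
CPM of 8 genes in the 24 samples of D7 and D25, with a line for each cow as labelled (CL blue circles, HT red triangles, cows 8513 and 8660 dashed) and a black bar at the median of 12. LALBA is on a log axis and the others start at 0, and MKI67 and CEP55 cross upwards in cow 8513 while most other cows go down.

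Luminal epithelial genes, which mark the secretory lining, had no common direction. Of 15 loci, 7 were above and 8 below 0, 0 had an unadjusted p under 0.05, and the median was -0.03. With library size alone as scaling, 11 were above and 4 below 0, since that scaling moved the median of all loci to 0.07. KRT19, a luminal keratin, ranged from 259 to 984 CPM (median 589) at D7 and from 277 to 670 CPM (median 503) at D25, with a log2 fold change of -0.25 (interval -0.92 to 0.43), and -0.16 without the D7 library of cow 8513. KRT80, a keratin of differentiated epithelia, had medians of 2.6 and 1.57 CPM (interval -1.91 to 0.32).

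Basal and myoepithelial genes, whose products contract the alveoli and anchor them to the basement membrane, were mostly below 0. Of 16 loci, 15 were below (47.2% of all loci) and 1 above 0, 0 had an unadjusted p under 0.05, and the median was -0.27. The 6 loci paired through the D3 vs. D-3 table were all below 0, with a median of -0.34. The contractile genes CNN1 (-0.61, interval -1.38 to 0.15), ACTA2 (-0.27, interval -0.82 to 0.27), MYH11 (-0.27, interval -0.73 to 0.18) and MYLK (-0.23, interval -0.55 to 0.09) had intervals that included 0. In CL and HT cows alone they were -0.23 and -0.91 for CNN1, -0.05 and -0.47 for ACTA2. For MYH11 they were -0.03 and -0.5, and for MYLK -0.14 and -0.33. The list median was -0.17 in CL cows alone and -0.34 in HT cows alone. The D7 library of cow 8513 had the highest value of the score, and without it the list median was -0.21, with -0.38 for CNN1 and -0.12 for MYH11.

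Milk protein genes had the lowest list median and the widest spread between cows. All 4 tested loci were below 0 (47.2% of all loci), and the median was -1.6. Of the 4, 1 had an unadjusted p under 0.05 (0.924% of all loci, lower at D25) and 0 were DEGs. The summed level of the 4 loci ranged from 61.2 to 165600 CPM (median 14480) at D7 and from 625.5 to 31570 CPM (median 3648) at D25. In 3 D7 cows the sum was below every D25 cow and in 3 above every D25 cow, and the score SD over cows was 3.01 at D7 and 1.51 at D25. The score was lower at D25 in 7 of 12 cows. In fits of 1 treatment alone the list median was -0.29 in CL cows (3 of 4 loci below 0) and -1.98 in HT cows (4 of 4). The difference of mean scores was 0.55 in CL cows and -1.25 in HT cows, and -0.52 in HT cows without the D7 library of cow 8513. Without that library the list median was -0.65.

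LALBA, alpha-lactalbumin, the lactose synthase cofactor, ranged from 1.93 to 12200 CPM (median 155) at D7 and from 5.48 to 638 CPM (median 36.4) at D25. As many cows were higher as lower (6 of 12). The log2 fold change of -3.07 ± 1.25 (p = 0.0168, FDR = 1) compared means that the D7 library of cow 8513 dominated, and it was -1.35 (p = 0.243, FDR = 1) without it. The beta-casein gene CSN2 had medians of 9450 and 2370 CPM (-1.58 ± 1.02), and -0.8 without that library. The alpha-S1-casein gene CSN1S1 had medians of 3500 and 1570 CPM (-1.61 ± 1.04), and -0.49 without it. Intervals of both caseins included 0.

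Milk fat genes had 22 of 25 loci below 0 (47.2% of all loci) and a median of -0.24. An unadjusted p under 0.05 was reached by 1 of the 25 (0.924% of all loci, lower at D25). Without the D7 library of cow 8513 the median was -0.09. In CL cows alone 10 of 25 loci were below 0 with a median of 0.04, and in HT cows alone 25 of 25 with a median of -0.58. For the interaction 0 of the 25 reached an unadjusted p under 0.05, a level reached by only 0.156% of all loci. FABP3, a fatty acid carrier, had medians of 35.7 and 20 CPM, and its log2 fold change of -1.61 ± 0.79 (p = 0.0465, FDR = 1) was -0.74 without that library. Lipoprotein lipase, LPL, was lower in 10 of 12 cows with medians of 75.7 and 52.7 CPM (-1.05, interval -2.19 to 0.09), and -0.31 without it. XDH, a protein of the milk fat globule, had medians of 1560 and 1030 CPM (interval -1.41 to 0.39).

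INSIG1, a regulator of sterol sensing, was lower in 10 of 12 cows with medians of 38.6 and 30.4 CPM (log2 fold change -0.87, interval -1.84 to 0.1), and -0.55 without the D7 library of cow 8513. FASN, fatty acid synthase, had medians of 930 and 1770 CPM, and its fitted log2 fold change of -0.05 (interval -1.02 to 0.92) was 0.21 without the D7 library of cow 8513. Lactose synthesis and amino acid transport genes had 15 of 16 loci below 0 and a median of -0.15, which was -0.08 without it, and with library size alone 9 of 16 were below 0.

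**Figure D4:**
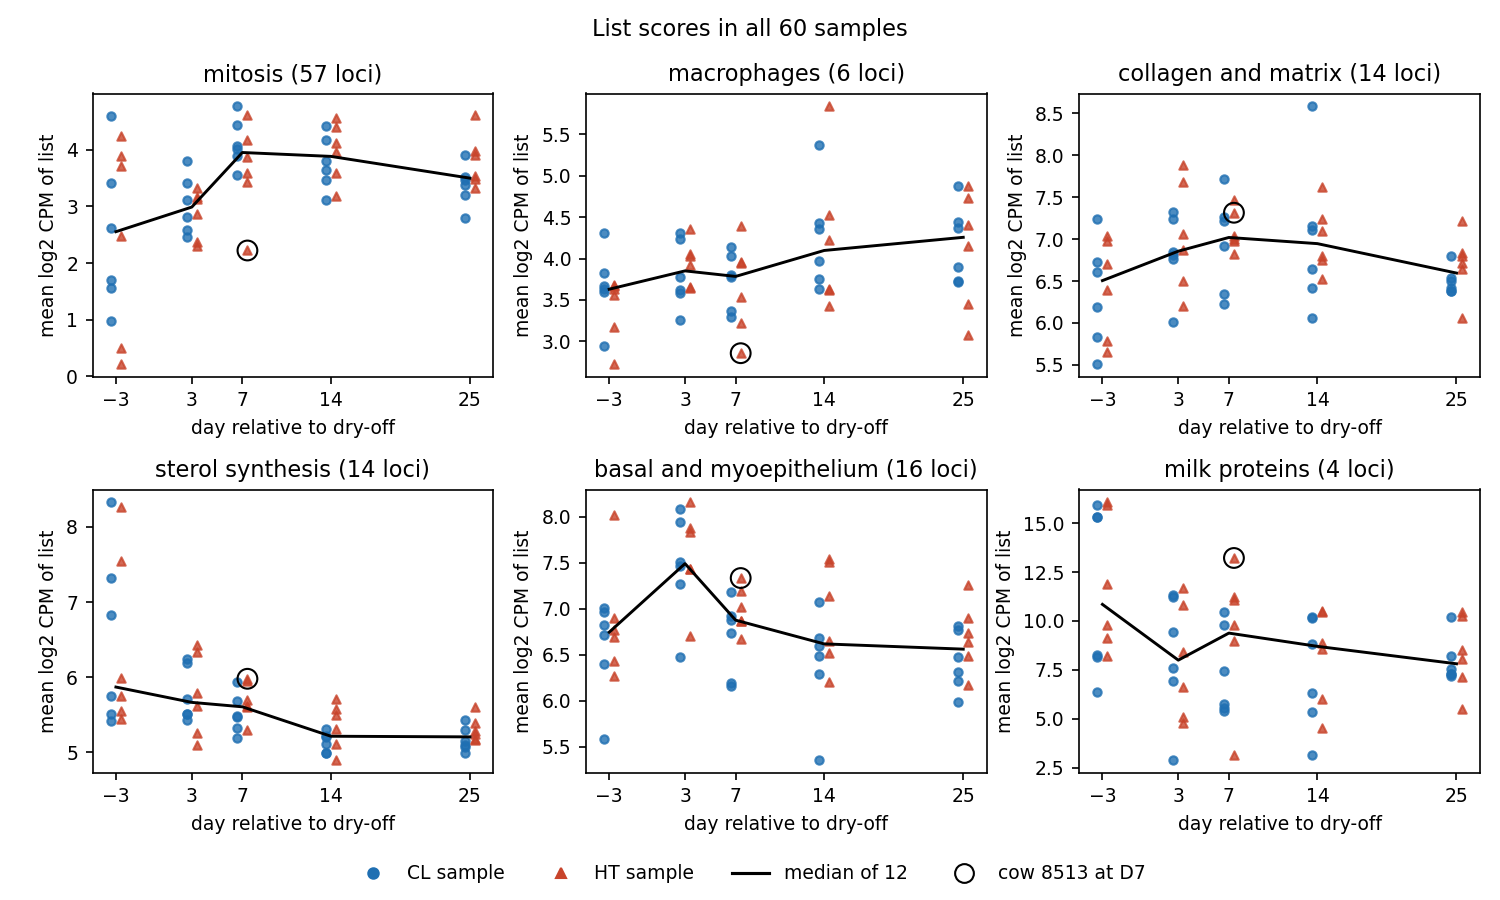
Mean log2 CPM of 6 gene lists in all 60 samples by day relative to dry-off, with CL samples as blue circles, HT samples as red triangles and a black line through the medians of 12. The mitosis median was 3.95 at D7 and 3.5 at D25, the macrophage median 3.78 and 4.26, and the ringed D7 sample of cow 8513 lies at an end of the mitosis, macrophage, sterol, myoepithelial and milk protein panels.

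Signalling genes tied to involution, among them IGF and JAK-STAT components, had 15 of 23 loci below (47.2% of all loci) and 8 above 0. The median was -0.17, and 1 locus had an unadjusted p under 0.05 (0.924% of all loci, lower at D25). RET, a receptor tyrosine kinase, got its symbol only through the D7 vs. D3 table. Its direction is therefore not independent of how it was found. RET ranged from 1.38 to 15.8 CPM (median 6.03) at D7 and from 1.57 to 4.52 CPM (median 2.43) at D25. The highest D7 value was that of cow 8513, the next was 8.37 CPM, and 7 of 12 cows were lower at D25 (log2 fold change -1.15 ± 0.56, p = 0.0426, FDR = 1). Without that library the log2 fold change of RET was -0.91 (p = 0.109, FDR = 1), the list median was -0.1, and none of the 23 loci (0) stayed below 0.05 unadjusted. In the fit blocked on cow, p was 0.0719 for RET, but 3 of the 23 fell below 0.05 unadjusted (4.23% of all loci, in either direction). Among them were OSMR (log2 fold change -0.55, p = 0.0238) and BACH2 (0.64, p = 0.0144), both described below, with opposite signs. No locus passed the FDR in that fit. OSMR, the oncostatin M receptor, had medians of 266 and 155 CPM and was lower in 11 of 12 cows (-0.58, interval -1.17 to 0.01).

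STAT3, a transcription factor of early involution, was lower in 11 of 12 cows with a small estimate (log2 fold change -0.18, interval -0.45 to 0.08). IGF1 had medians of 108 and 99.9 CPM (interval -0.65 to 0.43). BACH2, a transcriptional repressor, had medians of 1.2 and 1.56 CPM and was higher in 9 of 12 cows (0.65, interval -0.09 to 1.4).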

How the data were processed

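The authors trimmed reads with Trim Galore 0.4.1, mapped them with TopHat2 2.0.13, merged Cufflinks 2.2.1 transcripts with the ENSEMBL annotation and deposited raw counts of uniquely mapped reads per locus from HTSeq. The methods name bosTau7 and the submitters' processing notes UMD3.1, and no coordinates are given here. A set of 742 loci joins several genes, whose reads cannot be divided. Here, a locus was tested if 6 or more of the 60 samples had 1 CPM or more, with edgeR 4.0.16 (R 4.3.3, TMM, quasi-likelihood F-test, Benjamini-Hochberg FDR) in a model of all 60 samples with 1 mean per time point. CPM are TMM-scaled, and list scores are mean log2 CPM with a prior count of 2. Scripts were tested on simulated data.

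Alternatives included DESeq2 1.42.0 and the cow as a replicate block. The labels give the pairing by cow. Own-cow libraries correlated over 0.1 in 10 of 12 cows and were the best match in 9, with 8513 and 8660 possibly exchanged. Named genes had the smallest p or highest level of their list, passed the less stringent threshold or are named by the study. The members and lists were chosen with earlier results of these data known. Symbols came from 3 shortened supplementary tables, whose fold changes and p-values were not used. Some genes are not reported here.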

Additional observations from a re-analysis of the deposited data

How the results depend on the processing

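DEGs numbered 0 in 30 of 33 alternatives, among them other scalings, DESeq2, the cow as replicate block, each treatment alone and each cow left out. A fit with no filter on low counts gave 1, XLOC_001285. With the cow as replicate block in only the 24 samples of D7 and D25 there was 1, XLOC_003594 (log2 fold change -1.07), and 5 with 8513 and 8660 also exchanged, a choice made after seeing the data, among them DIO2 (-0.80). The less stringent threshold was passed by 32 loci with the replicate block, 49 with the exchange, 37 without those cows, 126 in the 24 samples and 175 there with the exchange, where 622, 704, 685, 1615 and 1966 loci had an unadjusted p under 0.05. Unblocked, it was passed by 65 loci with no filter, 10 with a stricter filter, 48 in the 24 samples, 31 in the samples after dry-off, 27 with tagwise dispersions, 31 with DESeq2, 6 in CL and 4 in HT cows alone, and 8 (without 8647) to 31 (without 8686) with a cow left out, with 28 without 8541 and 26 without 8660. The causes were not tested.

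List medians moved by less than the SD of list scores between cows in all alternatives run. That limit is wide, so staying within it does not show that a median is stable. In at least 1 alternative the sign turned for mitosis and DNA replication (0.06 each in HT cows) and for milk fat and lactose (0.04 and 0.02 in CL cows). It also turned for the G1, B and plasma cell, antigen presentation, interferon, chemokine, luminal, adipocyte, endothelial and lysosomal lists, whose medians were within 0.07 of 0. Leaving out cow 8513 gave -0.58 for milk proteins, -0.08 for milk fat, -0.07 for lactose and -0.09 for the IGF list (-0.1 without 8314), and the medians were -0.21 for matrix enzymes without 8647 and -0.23 for skeletal muscle without 8713. Over the 33 alternatives the milk protein median ranged from -1.98 to -0.02. The spread between cows was wide for the milk protein list, with a score SD of 3.01 at D7 and 1.51 at D25. The skeletal muscle list had no locus left under the stricter filter. Signs of single genes turned in HT cows alone for MKI67 (0.18), TOP2A (0.17), BUB1B (0.18), NEK2 (0.12), CKS2 (0.12), CLSPN (0.01) and MCM10 (0.04), and in CL cows alone for CXCL12 (0.08). CSN2 was 0.05 and CSN1S1 0.15 with the block in the 24 samples, 0.09 and 0.19 with the exchange there, and CSN1S1 0.09 with the block without both cows. FASN was 0.07 by library size, 0.17 with the block and 0.14 with the block and the exchange. With the block it was also 0.65 without both cows, and 0.31 in the 24 samples with or without the exchange. Unblocked, it was 0.61 in CL cows, 0.53 without both cows and 0.21 without the D7 library of 8513. With a cow left out it was -0.15 to 0.21. The interaction gave 1 DEG with DESeq2, XLOC_017968, and 0 in every edgeR fit run. Depth limits statements near the floor, such as those on ANKRD1 and MMP27.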

Other observations

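Further gene groups differed little between D25 and D7. Endothelial genes had 7 of 10 loci above and 3 below 0 with a median log2 fold change of 0.07, and KDR, the main VEGF receptor of vessels, had medians of 113 CPM at D7 and 130 CPM at D25 (interval -0.29 to 0.6). Lysosomal genes had 7 of 15 loci above 0 and a median of -0.04, but 12 of 15 above 0 with library size alone as scaling, and the lysosomal membrane protein LAMP1 had medians of 268 and 281 CPM (log2 fold change 0.1, and 0.16 without the D7 library of cow 8513). Actin and adhesion genes had 23 of 29 loci below 0 with a median of -0.09, which became 18 of 29 with library size alone. ACTN1, an actin cross-linker, had medians of 254 and 202 CPM (interval -0.57 to 0.08). Genes of the endoplasmic reticulum and cell stress had 8 of 10 loci below 0 and a median of -0.08, and the co-chaperone DNAJC12 had medians of 26.4 and 18.3 CPM (log2 fold change -1.05, interval -2.41 to 0.31), and -0.51 without the D7 library of cow 8513. PGM1, a glucose phosphate mutase, was lower at D25 in 11 of 12 cows, with 47.3 to 64.9 CPM at D7 and 41.2 to 56.6 CPM at D25 (log2 fold change -0.17, interval -0.41 to 0.07). Skeletal muscle genes had 2 tested loci, both below 0.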
